A study of Mus musculus with 6 samples.

Results

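The genes described here are genes of the marrow's connective tissue stroma, bone cells and blood vessels, though blood cells also express some of them. They are a fixed list of 40 genes, each represented by its brightest array probe whose accession maps to the gene in RefSeq. Of the 40, 39 had a matched probe, 31 were bright enough to test, 8 were too dim and 1, Bglap2, had no matched probe. The array carried 32288 genes or unnamed transcripts in all, of which 14853 were tested.

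Bone marrow cells were collected from the femurs of male ISAM mice, aged 10 weeks and of mixed strain, and profiled on 6 one-colour arrays. ISAM mice (Epo-/-::3.3K-Epo3'-Tg458) lack the endogenous erythropoietin gene and carry an Epo transgene, and are a model of erythropoietin-deficiency anemia, so every animal here, controls included, shares that genotype. The rHuEPO arm held 3 samples taken 6 h after an intraperitoneal injection of recombinant human erythropoietin at 3000 U/kg. The control arm held 2 samples taken 6 h after phosphate-buffered saline (PBS) and 1 untreated sample, as the study grouped them. No wild-type sample was used here, and the labels do not say whether replicates were separate animals, so p-values measure the spread between these samples, which may be technical.

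Marrow stroma is a network of mesenchymal cells around sinusoidal vessels that anchors blood-forming cells and feeds them with the chemokine CXCL12 and with stem cell factor. Osteoblasts on the bone surface secrete type I collagen and the mineral-binding proteins of bone, osteocytes lie within the mineral, and osteoclasts, which descend from blood-forming cells, dissolve it. These cells are a minority among the cells collected from a marrow. In such bulk samples fewer cells of a type and less RNA per cell cannot be told apart.

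Levels below are log2 signals relative to the array's 75th percentile, so that 0 is that percentile and each unit is a doubling. Differences are on the same log2 scale, as rHuEPO less control, each with limma's standard error (SE), from 3 arrays in either arm. Signals of different probes are not comparable, and with 6 arrays each value is imprecise. Well above background were 46.2% to 46.6% of gene spots in the rHuEPO arm and 48.6% to 50.5% in the control arm. At the dim end the arms differed, since the negative control spots read -5.66 to -5.57 in the rHuEPO arm and -6.00 to -5.88 in the control arm. Slide 1 held rHuEPO replicate 1 and the untreated sample, and slide 2 held the other 4. Slide and scan fell together. The markers of blood cells were bright, with 10 of 10 neutrophil and 10 of 10 erythroid markers tested, while 2 of 10 skeletal muscle and 3 of 10 cartilage markers passed the brightness filter.

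The promoters of a pair of genes are shown first, because one, Mmp13, was the tested member whose arms separated and the other, Bglap, was the tested member with the widest range between arrays. Both are bone genes with well-studied control by RUNX2, the osteoblast master regulator. The sequences are the 250 bases before the annotated start in RefSeq, build GRCm38.p6, read 5′ to 3′ on the gene's strand, at chr9:7272264-7272513 (plus strand) for Mmp13 and chr3:88384467-88384716 (minus strand) for Bglap. Capitals mark the RUNX core ACCACA in both, and also the AP-1 site TGACTCA in Mmp13.
Mmp13: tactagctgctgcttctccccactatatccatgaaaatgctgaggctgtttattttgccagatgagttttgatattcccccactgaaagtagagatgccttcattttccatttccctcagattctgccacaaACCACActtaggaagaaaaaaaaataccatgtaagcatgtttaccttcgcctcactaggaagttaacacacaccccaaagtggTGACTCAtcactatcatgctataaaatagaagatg
Bglap: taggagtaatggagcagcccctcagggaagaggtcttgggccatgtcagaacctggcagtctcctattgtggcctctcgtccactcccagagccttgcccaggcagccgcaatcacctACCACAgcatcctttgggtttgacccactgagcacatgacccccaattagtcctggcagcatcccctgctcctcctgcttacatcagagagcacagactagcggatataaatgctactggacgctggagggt

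Counting back from the base before the start as -1, the RUNX core lay at -118 to -113 in Mmp13 and at -132 to -127 in Bglap, and the AP-1 letters at -35 to -29 in Mmp13. The motifs did not overlap. Searched on both strands, ACCACA was found in 7 of 34 promoters of the 27 members in the sequence table (Bglap, Dmp1, Mepe, Spp1, Mmp13, Mmp14 and Runx2) and in 14.05% of all 32851 promoters of that length. TGACTCA was found in 2 of the 34 (Mmp13 and Col6a1) and in 4.46% of all. The STAT letters TTCNNNGAA, of the kind bound by STAT5 downstream of the erythropoietin receptor, were found in 0 of the 34 and in 7.02% of all. A match is a description of the letters in this window.

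The comparison of rHuEPO with control asked whether these genes had changed in marrow 6 h after the injection. Mmp13, the collagenase that osteoblasts and growth plate cells secrete, was the one member of the 31 tested with every rHuEPO array above every control array, at a 4.23-fold difference. Of the 31 tested members limma called 0 after Benjamini-Hochberg adjustment, against 0.0673% of all 14853 genes called higher and 0% called lower, and 1 member, Mmp13, had an unadjusted p under 0.05, as did 2.44% of all genes in the higher and 2.51% in the lower direction. With slide as a block the member counts were again 0 called and 1 unadjusted (Mmp13), where 0.0741% of all genes were called higher and 0% lower, and 5.62% were higher and 5.69% lower at the unadjusted threshold. Arms that did not overlap were found for 1 of 31 members in the higher direction, where 5.01% of all genes did so, and for 0 of 31 in the lower direction, where 5.39% did. The members' median difference was -0.062 and that of all genes -0.015, with 15 members above 0 and 16 below. A share of 47.3% of all genes lay above 0.

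**Figure D1:**
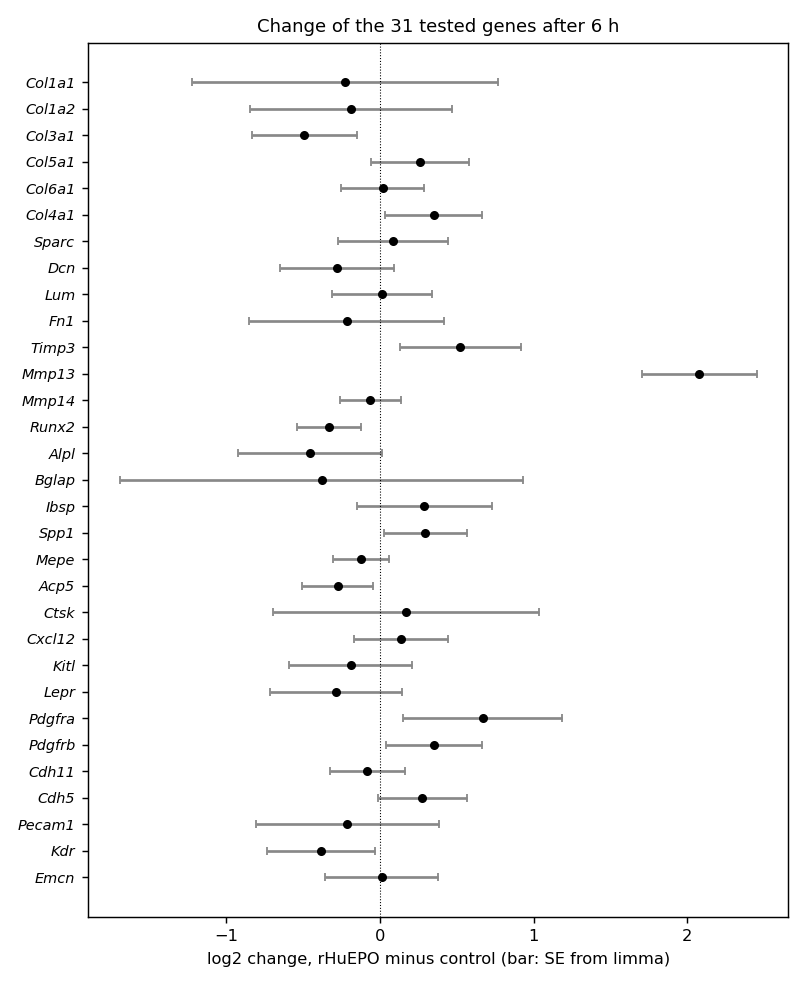
Log2 change, rHuEPO minus control, of each tested gene (points) with its SE from limma (bars), 3 against 3 arrays. Mmp13 at 2.08 stands to the right of the other 30, which lie between -0.49 and 0.67.

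Mmp13 read -0.89, -0.34 and 0.40 on the rHuEPO arrays, against -2.20 and -2.87 on the PBS arrays and -2.00 on the untreated array. The lowest rHuEPO array thus stood more than 1 log2 unit above the highest control. The difference was 2.08 ± 0.37 (SE, 3 against 3 arrays) and its limma adjusted p was 0.291 over all genes, or 0.238 with slide as a block. Within slide 1 the difference was 1.11 and within slide 2 it was 2.56. Over the other settings tried it ran from 0.67 with normexp background correction to 2.39 with array weights, and array weights alone carried it past the threshold (limma adjusted p = 0.0477). With 1 array left out it ran from 1.74 to 2.39 (limma adjusted p from 0.137 to 0.831). Mmp13 was well above background on all 6 arrays, and its single probe allows no check by another probe of the gene.

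The other matrix proteases showed no such separation. Mmp14, the membrane-bound activator of secreted collagenases, read -1.11, -0.75 and -0.94 on the rHuEPO arrays, against -1.14 and -0.70 on the PBS arrays and -0.78 on the untreated array, a range of 1.36-fold over all 6. Mmp2, the gelatinase of fibroblasts, was well above background on 0 of 6 arrays. Among the context genes of the matrix, Timp1, a secreted inhibitor of metalloproteinases, was the one whose arms did not overlap. It read -1.51, -0.34 and -0.27 on the rHuEPO arrays, against -1.94 and -1.76 on the PBS arrays and -2.12 on the untreated array. Its difference was 1.23 ± 0.34 and its limma adjusted p was 0.720. Timp3, the inhibitor that stays bound to the matrix, had a difference of 0.52 ± 0.39, with its highest level, 1.70, on rHuEPO replicate 2 and its other arrays between 0.00 and 0.72.

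**Figure D2:**
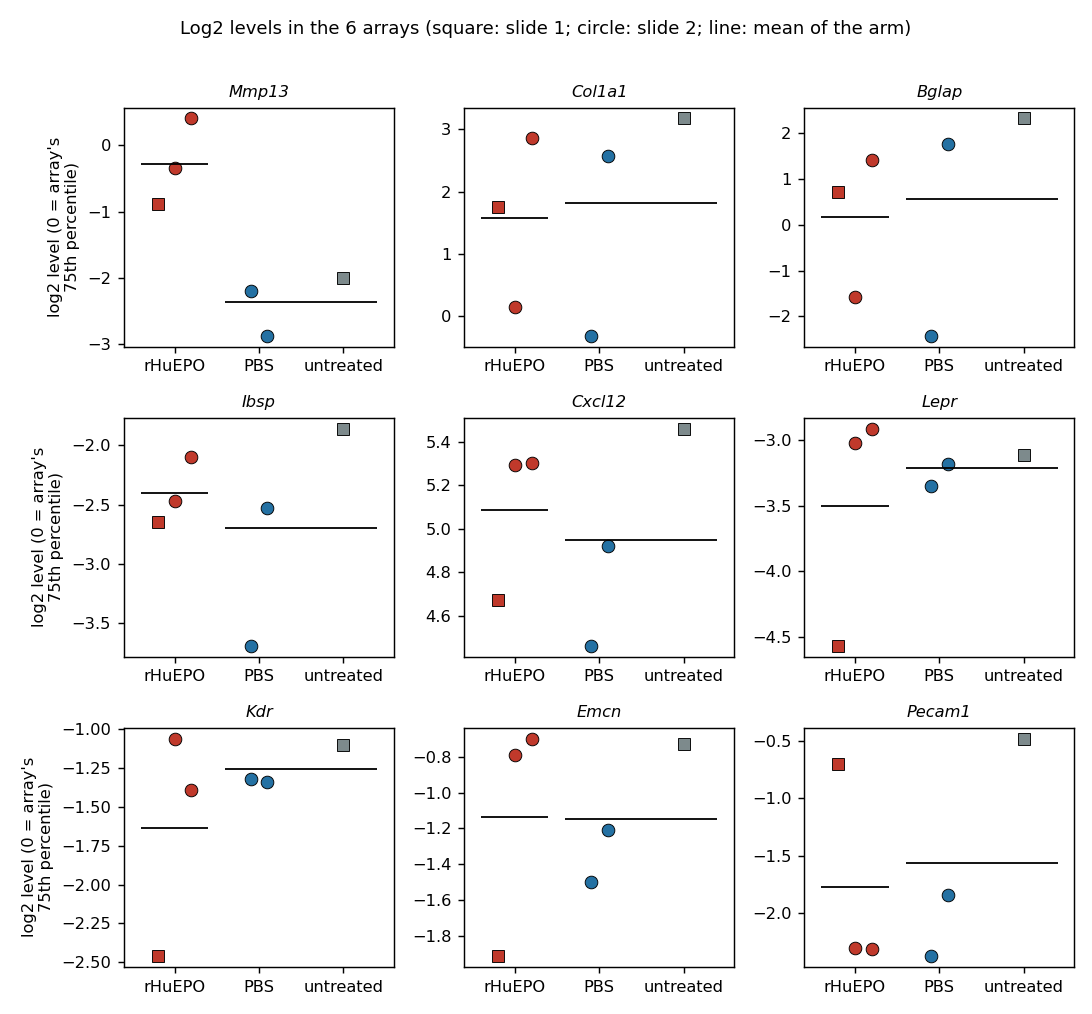
Log2 level of 9 genes on each array, by group, with the mean of each arm as a line and the slide as the symbol. The arms separate for Mmp13, rHuEPO replicate 1 is lowest for Lepr, Kdr and Emcn, and both slide 1 arrays are high for Pecam1.

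The genes of bone matrix varied far more between arrays than between arms. Type I collagen, the main protein of bone, is made of the products of Col1a1 and Col1a2. Col1a1 read 1.75, 0.15 and 2.85 on the rHuEPO arrays, against -0.31 and 2.57 on the PBS arrays and 3.17 on the untreated array, which is an 11.2-fold range. PBS replicate 1 and rHuEPO replicate 2 were low and the other 4 arrays high, so low and high arrays were present in both arms. The difference between the arms was -0.23 ± 1.00. A second probe of Col1a1 gave -1.78, -3.47 and -1.81 on the rHuEPO arrays, against -4.42, -2.13 and -0.25 on the PBS and untreated arrays, with the same lowest 2 arrays. Col1a2 read 3.19, 2.16 and 3.28 on the rHuEPO arrays, against 1.71 and 3.05 on the PBS arrays and 4.42 on the untreated array, and was again lowest on PBS replicate 1 and rHuEPO replicate 2.

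Bglap encodes osteocalcin, a hormone-like matrix protein of mature osteoblasts. It had the widest spread of the tested members, with 0.71, -1.59 and 1.42 on the rHuEPO arrays, against -2.43 and 1.78 on the PBS arrays and 2.33 on the untreated array. That is a 27.03-fold range, with PBS replicate 1 and rHuEPO replicate 2 lowest once more, and the difference between the arms was -0.38 ± 1.31. The osteocalcin genes of the mouse are near-identical neighbours, and how far this probe also reads Bglap2 or the related Bglap3 was not tested. Ibsp, the bone sialoprotein that starts mineral formation, read -2.65, -2.47 and -2.1 on the rHuEPO arrays, against -3.69 and -2.53 on the PBS arrays and -1.86 on the untreated array, with PBS replicate 1 lowest and the one array on which it was not well above background. Its difference was 0.29 ± 0.44. Alpl, the alkaline phosphatase that frees phosphate for mineral, was well above background on 3 arrays, rHuEPO replicate 3, PBS replicate 2 and the untreated one, and its difference was -0.45 ± 0.47.

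**Figure D3:**
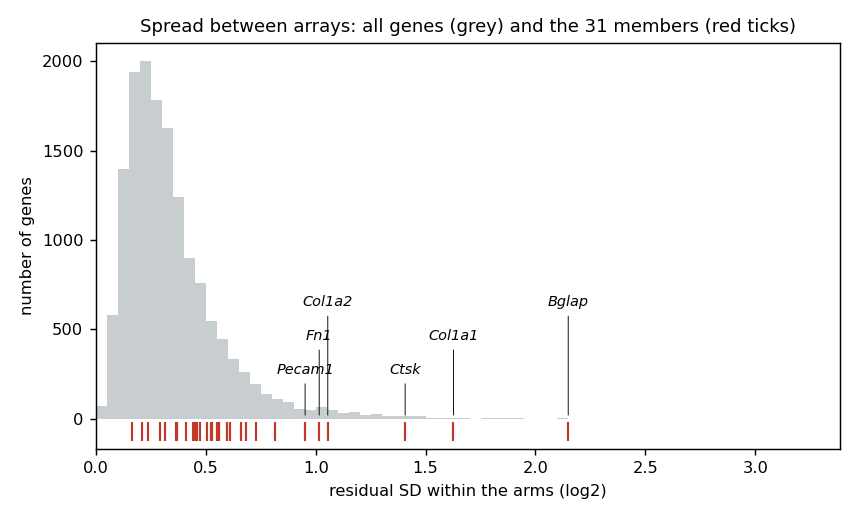
Number of genes by residual SD of log2 level within the arms (grey, all 14853 genes) and the 31 tested members as red ticks under the axis. Bglap and Col1a1 lie far to the right, at 2.15 and 1.63, where the median gene is at 0.29.

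The residual SD within the arms measures this spread. Its median was 0.53 over the members and 0.29 over all genes tested, and 28 of 31 members lay above the median of all genes. A residual SD above 0.61, a level that 10% of all genes exceeded, was found for 10 members: Col1a1, Col1a2, Fn1, Alpl, Bglap, Ibsp, Ctsk, Lepr, Pdgfra and Pecam1. Of these, Alpl, Ctsk and Pdgfra were well above background on 3 arrays and Ibsp and Lepr on 5, so their spread includes dim values. The residual SD also pools the slides, and in the control arm PBS with untreated. All genes were compared whatever their brightness. A larger residual SD than that of Bglap was found in 0.054% of all genes, and than that of Col1a1 in 0.209%. Members of one cell type share their source, so these are not independent observations.

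PBS replicate 1 was the lowest of the 6 arrays for 14 of 31 members (45.2%), where it was lowest for 16.1% of all genes. The 14 include all 6 collagens, Sparc, Lum, Mmp14, Alpl, Bglap, Ibsp, Cxcl12 and Pecam1. The untreated array was highest for 12 of 31 members (38.7%), against 16.2% of all genes. On PBS replicate 1 the 9 tested B lineage markers also stood lowest, with a mean level of -0.32, against 0.74 to 1.31 on the rHuEPO arrays and 1.80 and 2.03 on the other control arrays. The erythroid markers averaged 3.96 there, against 4.51 to 4.82 on the rHuEPO arrays and 4.38 and 4.51 on the other controls. The neutrophil markers were highest on that array, with a mean of 6.81, against 6.205 to 6.55 on the rHuEPO arrays and 6.22 and 6.23 on the other controls. The part of these markers in the members' values was not tested. Without PBS replicate 1 the members' median difference was -0.18, with 8 of 31 above 0.

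**Figure D4:**
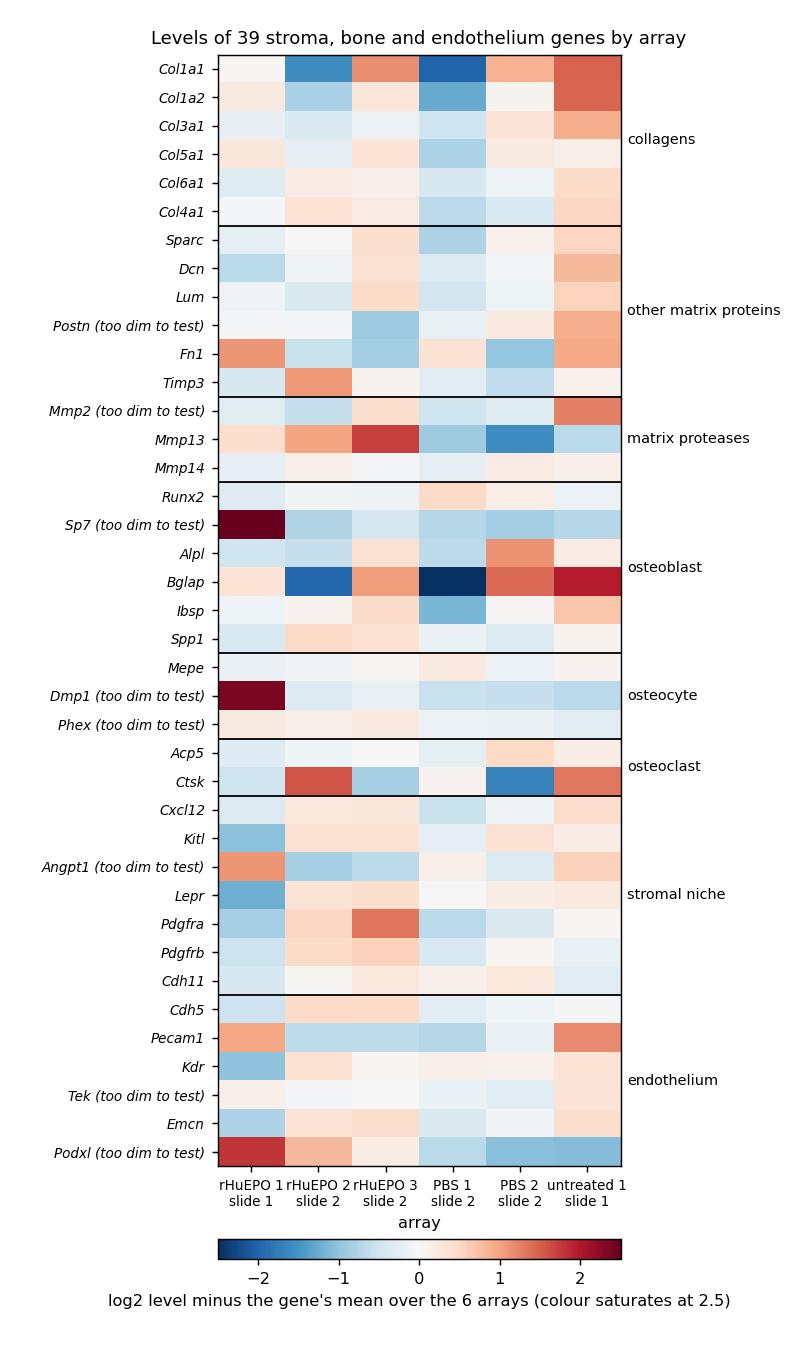
Log2 level of each of the 39 genes with a probe, minus its own mean over the 6 arrays, with genes in rows by role and arrays in columns. Col1a1, Col1a2 and Bglap are blue (low) on PBS replicate 1 and rHuEPO replicate 2, Kitl, Lepr, Kdr and Emcn are blue on rHuEPO replicate 1, and Sp7, Dmp1 and Podxl are red (high) there.

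The remaining collagens had smaller ranges. Col4a1 and Col6a1 were lowest on PBS replicate 1 but, unlike Col1a1 and Col1a2, not low on rHuEPO replicate 2. On the probes used they read -1.36 and -2.51 there, the highest levels within the rHuEPO arm. Col3a1, of soft connective tissue, had a difference of -0.49 ± 0.34, and Col5a1, which sets the width of collagen fibrils, of 0.26 ± 0.32. Col6a1, of the microfibrils around cells, had 0.017 ± 0.27, and Col4a1, of the basement membrane under vessels, had 0.35 ± 0.31. Against PBS alone the same probe of Col4a1 had the larger difference of 0.69, with an unadjusted p of 0.0173 in the limma fit with 3 groups. A second probe of Col4a1 was also well above background on all 6 arrays. It read -2.35, -2.22 and -1.90 on the rHuEPO arrays, against -2.55 and -2.41 on the PBS arrays and -2.17 on the untreated array. Its arms differed by 0.225, and within the rHuEPO arm it was highest on replicate 3. Of the 6 collagens 3 lay above 0 and 3 below, with a median of -0.085.

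Among the other matrix proteins, Sparc, the collagen-binding osteonectin, had a difference of 0.085 ± 0.36. The small proteoglycans Dcn (decorin) and Lum (lumican), which coat collagen fibrils, had -0.28 ± 0.37 and 0.014 ± 0.33. On these probes all 3 were highest on the untreated array. A second probe of Sparc, well above background on all 6 arrays, was highest on rHuEPO replicate 3, at 0.42, and lowest on rHuEPO replicate 1, at -1.03. Fn1, the cell-binding fibronectin, read 2.57, 0.91 and 0.62 on the rHuEPO arrays, against 1.83 and 0.50 on the PBS arrays and 2.42 on the untreated array. Both slide 1 arrays were therefore its highest, and the difference between the arms was -0.22 ± 0.63. Postn, the periosteum protein periostin, was well above background on the untreated array alone, at -3.61.

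The transcription factors of osteoblasts gave another picture. Runx2 read 0.14, 0.39 and 0.32 on the rHuEPO arrays, against 0.93 and 0.61 on the PBS arrays and 0.31 on the untreated array, with a difference of -0.33 ± 0.21. It was highest on PBS replicate 1, the array on which Bglap, Ibsp and Col1a1 were lowest. A second bright probe of Runx2 was also highest there, at 0.75. The neutrophil markers averaged highest on that array too, and which cells the Runx2 signal came from was not tested. Sp7 (osterix), which acts after Runx2, was well above background on rHuEPO replicate 1 alone, at -1.52, and lay between -5.82 and -5.35 on the other 5 arrays. Spp1 (osteopontin), which macrophages as well as bone cells secrete, read 2.07, 2.93 and 2.82 on the rHuEPO arrays, against 2.28 and 2.11 on the PBS arrays and 2.55 on the untreated array. Its difference was 0.29 ± 0.27.

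Of the osteocyte genes, Mepe, a matrix phosphoglycoprotein, varied least, with a 1.34-fold range and a difference of -0.12 ± 0.18. Its levels, from -3.12 to -2.71, lay near the lowest signals counted as well above background, -3.84 to -3.38. Dmp1, which directs mineral deposition, was well above background on rHuEPO replicate 1 alone, at -2.95, and between -5.98 and -5.49 elsewhere. Sp7 and Dmp1 thus shared 1 array, and their differences between the arms rest on it. Phex, the peptidase that restrains the phosphate hormone FGF23, was well above background on 0 of 6 arrays. Its rHuEPO arrays read -5.48, -5.55 and -5.46, against -5.85 and -5.87 on the PBS arrays and -5.99 on the untreated array, which are the levels of the negative control spots in each arm.

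The osteoclast genes differed from each other. Acp5, the tartrate-resistant phosphatase, which macrophages also make, read 2.79, 3.02 and 3.14 on the rHuEPO arrays, against 2.87 and 3.61 on the PBS arrays and 3.30 on the untreated array (difference -0.28 ± 0.23). Ctsk, the collagen-degrading protease cathepsin K, read -3.68, -1.61 and -4.02 on the rHuEPO arrays, against -3.10 and -4.85 on the PBS arrays and -1.86 on the untreated array. It was well above background on 3 of the 6 arrays, rHuEPO replicate 2, PBS replicate 1 and the untreated one, and its difference was 0.17 ± 0.87. Ctsk was thus high on rHuEPO replicate 2, where Col1a1 and Bglap were low.

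The niche genes had their lowest values on rHuEPO replicate 1 for 5 of 6 tested members. Lepr, the leptin receptor that marks perivascular stroma, read -4.57, -3.02 and -2.91 on the rHuEPO arrays, against -3.35 and -3.18 on the PBS arrays and -3.11 on the untreated array. Kitl, which encodes stem cell factor, read -3.76, -2.35 and -2.37, against -2.98, -2.38 and -2.55 on the PBS and untreated arrays. On rHuEPO replicate 1 both were not well above background, and the other rHuEPO arrays stood at or above the controls. Their differences were -0.29 ± 0.43 and -0.19 ± 0.40. The growth factor receptors of mesenchymal and mural cells, Pdgfra and Pdgfrb, had 0.67 ± 0.52 and 0.35 ± 0.31. Pdgfra was well above background on 3 of 6 arrays, and its difference was -0.39 with normexp background correction. Cdh11, a cadherin of mesenchymal cells, had a difference of -0.082 ± 0.24. Cxcl12, the chemokine that retains blood stem cells, was bright on every array, with 4.67, 5.29 and 5.30 on the rHuEPO arrays, against 4.46 and 4.92 on the PBS arrays and 5.46 on the untreated array. Its difference was 0.14 ± 0.31, and its second probe, for another transcript, gave 0.12. Angpt1, a ligand of the endothelial receptor TIE2, was well above background on the 2 slide 1 arrays alone, at -2.55 on rHuEPO replicate 1 and -3.07 on the untreated array.

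Among the vessel genes, Kdr, the main VEGF receptor, read -2.46, -1.06 and -1.39 on the rHuEPO arrays, against -1.32 and -1.34 on the PBS arrays and -1.10 on the untreated array. Emcn, the endomucin of sinusoidal and type H capillaries, read -1.91, -0.79 and -0.70, against -1.50, -1.21 and -0.73 on the PBS and untreated arrays. Cdh5, the junction cadherin of endothelium, read -2.39, -1.40 and -1.41, against -2.15, -1.98 and -1.89 on the PBS and untreated arrays. For all 3 the lowest array was rHuEPO replicate 1, and the differences were -0.38 ± 0.35, 0.012 ± 0.37 and 0.28 ± 0.29. Tek, the gene of TIE2, was well above background on 0 of 6 arrays.

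Pecam1, an adhesion protein of endothelium that platelets and white cells also carry, differed by slide. It read -0.70 on rHuEPO replicate 1 and -0.48 on the untreated array, both on slide 1, and between -2.37 and -1.84 on the 4 arrays of slide 2. Slide 1 lay higher by 1.62 ± 0.18 in a limma fit with arm and slide (adjusted p = 0.0248). It was the 1 member of 31 called in that comparison, in which 3.43% of all genes were called higher and 7.18% lower on slide 1. The difference between the arms was -0.23 within slide 1 and -0.20 within slide 2.

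Podxl, a sialomucin of endothelium and of blood progenitors, was too dim to test but, like Dmp1 and Phex, lay higher on all rHuEPO arrays. It read -3.23, -4.20 and -4.83 there, against -5.68 and -6.06 on the PBS arrays and -6.09 on the untreated array. It was well above background on rHuEPO replicate 1 alone. A second probe of Podxl was well above background on 0 of 6 arrays. The control arrays lay near their negative control spots. No fold is given, since the rHuEPO mean lies under the lowest signal counted as well above background. Negative control spots separated the same way, at -5.66 to -5.57 in the rHuEPO arm and -6.00 to -5.88 in the control arm. With no filter on dim probes limma listed 7610 of 32288 genes at an unadjusted p under 0.05, and with it 736 of 14853. Separation of these 3 dim genes is therefore not read as a change.

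The direction of most members turned between the slides. Within slide 1, where rHuEPO replicate 1 is set against the untreated array, 28 of 31 members lay below 0, with a median of -0.71. Within slide 2, where rHuEPO replicates 2 and 3 are set against the PBS arrays, 23 of 31 lay above 0, with a median of 0.34. The medians over all genes were 0.0048 and -0.019. Both signs together, lower in slide 1 and higher in slide 2, were found for 21 of 31 members (67.7%) and for 17.2% of all genes. Mmp13 and Col5a1 were higher in both slides, and Col3a1, Runx2, Alpl, Mepe, Acp5, Cdh11 and Pecam1 lower in both.

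**Figure D5:**
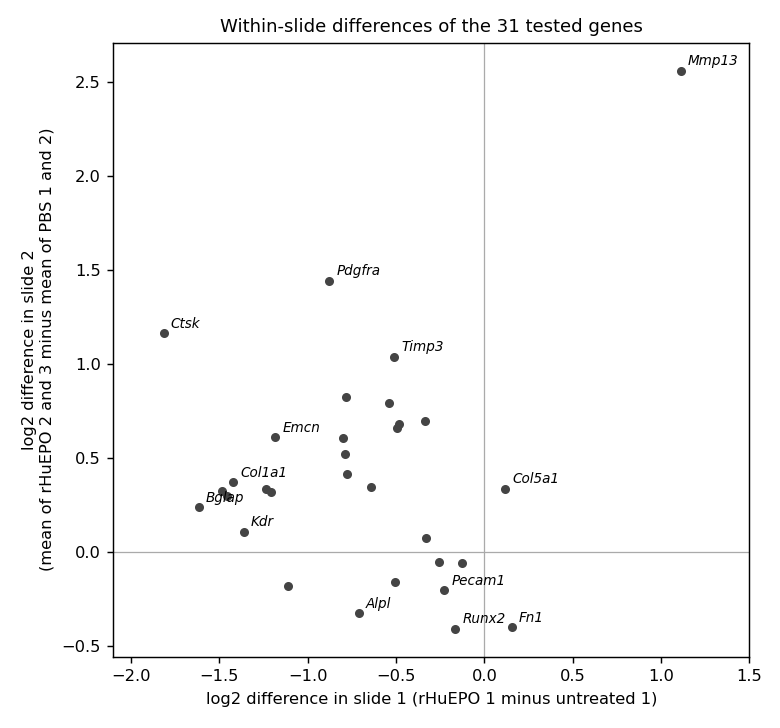
Log2 difference within slide 1 (x axis, 1 array against 1) and within slide 2 (y axis, 2 against 2) for the 31 tested genes. Most points, 21 of 31, lie in the upper left, and Mmp13 stands at the upper right with 1.11 and 2.56, where Col5a1 is the other gene above 0 in both.

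A slide-by-arm term in limma was added because of these values, so it is no independent check of them. On slide 1 it rests on 1 array in each arm, and its residual spread, with 2 degrees of freedom, comes from the arrays of slide 2 alone. It called 0 of 14853 genes, members included (smallest adjusted p among members 0.906), with 4% of all genes and 12 of 31 members at an unadjusted p under 0.05, a count that restates the pattern. The controls of the slides were of different kinds, untreated on slide 1 and PBS on slide 2, so slide, kind of control and single array cannot be told apart.

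On rHuEPO replicate 1 the megakaryocyte and platelet markers were also low. The mean level of the 10 markers, all tested, was 1.62 there, 3.67 and 2.88 on the other rHuEPO arrays, and 2.84 to 3.04 among the controls. Ppbp, a platelet chemokine, read 4.31 there and between 5.81 and 6.84 on the other 5 arrays. Of the 10 erythroid markers 8 lay above 0, where 47.3% of all genes did, with a median difference of 0.37. Arms did not overlap for 3 of the 10, all higher, where 5.01% of all genes were higher and 5.39% lower. Of the 9 tested macrophage markers 7 lay above 0, with a median of 0.40, and arms did not overlap for 2 higher and 1 lower. Macrophage means were 0.99, 1.39 and 1.14 in the rHuEPO arm and 0.76 to 1.07 among controls, so rHuEPO replicate 1 lay within the controls. The part of other cells in the members' values was not tested. Without rHuEPO replicate 1 the members' median difference was 0.18, with 20 of 31 above 0, and limma again called 0 of them, with 5 at an unadjusted p under 0.05. Over all 14853 genes it then called 3, with 1133 at an unadjusted p under 0.05.

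The untreated array was also set against the PBS arrays in the fit with 3 groups, which assumes that the lone array varies like the others. It lay above PBS for 27 of 31 members, with a median difference of 0.56, while 40.8% of all genes lay above 0 and their median was -0.11. Limma called 0 members and 0% of all genes in either direction. At an unadjusted p under 0.05 it listed 4 members, all higher in the untreated sample, where 1.75% of all genes were listed as higher and 3.66% as lower. These were Col1a2 at 2.04, Col4a1 at 1.03, Col3a1 at 0.99 and Ibsp at 1.24. On the second probe of Col4a1 the gap was smaller, with -2.17 untreated against -2.55 and -2.41 for PBS. The untreated array was on slide 1 and the PBS arrays on slide 2, so this contrast and the slide cannot be told apart. Within the rHuEPO arm, replicate 1 on slide 1 lay below both slide 2 replicates for 21 of 31 members and for 51.0% of all genes.

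Set against PBS alone in the same fit, rHuEPO gave a median member difference of 0.33, with 21 of 31 above 0. Limma called 0 of 31 members, where 0.0202% of all genes were called higher and 0% lower, and 2 members, Col4a1 and Mmp13, had an unadjusted p under 0.05, both higher, as did 1.95% of all genes in the higher direction and 2.03% in the lower. Mmp13 had a difference of 2.26 there, with a limma adjusted p of 0.534. The sets against PBS and against all controls share their PBS and rHuEPO arrays.

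Further genes of the same pathways were read as context, from 5 lists of 114 genes that are not members, of which 79 were tested. None passed limma's test over all genes, and 31 of 79 lay above 0, where 47.3% of all genes did. Arms did not overlap for 2 of the 79, both higher, where 5.01% of all genes were higher and 5.39% lower. Besides Timp1 this was Tnfrsf11a, the receptor RANK of osteoclast precursors, with a difference of 0.14. It read -3.20, -3.21 and -3.21 on the rHuEPO arrays, against -3.23 and -3.55 on the PBS arrays and -3.25 on the untreated array. These levels are close to the lowest signals counted as well above background, which were -3.84 to -3.38. The 19 tested matrix genes had a median of -0.079, with P4ha2, a collagen prolyl hydroxylase, next to Timp1 by p, at 0.78 ± 0.39. The 11 tested osteoblast and osteocyte genes had a median of 0.048, led by p by the pyrophosphate transporter Ank at -0.40 ± 0.25 and the osteoblast membrane protein Ifitm5 at 0.30 ± 0.27. Fgf23 was among the 11 genes of that list that were too dim.

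The 12 tested osteoclast genes had a median of -0.031, led by Src at -0.30 ± 0.29 and the transcription factor Nfatc1 at -0.36 ± 0.38. The 16 tested niche and mural cell genes had a median of -0.13, led by the mural receptor Notch3 at 0.78 ± 0.39 and the BMP antagonist Grem1 at 0.51 ± 0.34. The 21 tested endothelial genes had a median of -0.14, led by the hyaluronan receptor Lyve1 at -0.80 ± 0.36 and the scavenger receptor Stab1 at 0.43 ± 0.25. Averaged after centring each gene, the endothelial list was lowest on rHuEPO replicate 1, at -0.53, with 0.23 and 0.18 on the other rHuEPO arrays and -0.038 to 0.16 on the controls. The niche list was lowest on PBS replicate 1, at -0.42, and highest on the untreated array, at 0.48.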

How the data were processed

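Agilent arrays were hybridised with Cy3-labelled total RNA of bone marrow cells, an array for each sample (per the labels' protocols). Feature Extraction 10.7.3.1 made the deposited intensity values, as the headers of the scanner files record. The deposited value table holds log2 values with no stated scaling. Regressed on the scanner values, scaled to the 75th percentile with probe medians removed, its columns had slopes of 0.9988 to 1.0007. The median absolute difference from those values was 0.0013 to 0.0131. The slopes settle the deposited table's scale and direction, and the small differences its centring. Its column medians were 0.117, 0.0111 and 0.0867 for the rHuEPO arrays, -0.0569 and -0.0976 for the PBS arrays and -0.103 for the untreated array.

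Processed signals were divided by the 75th percentile of their array and put on the log2 scale, leaving out control and outlier spots. Spots of a probe were averaged, and 17 probes lacking a value somewhere were dropped. Probes well above background on at least 3 of 6 arrays were tested (19590 of 41157), the brightest per gene standing for it. Names came from RefSeq by accession (64.8% of probes). No gene spot was saturated. Groups were tested in R 4.3.3 with limma 3.58.1 (two-sided, Benjamini-Hochberg over all 14853 genes, threshold 0.05), a test checked on simulated data. Array correlations ran from 0.960 to 0.991, which cannot show whether arrays came from separate animals. Each array was counted as 1 sample. The named genes are all list members and the 2 context genes per list with the smallest p, with genes whose arms separated added after their values were seen. The members, lists and tests were chosen with earlier results of these data known. Normexp was run on median signals. The settings varied were the scaling (quantile, median), normexp, the filter, the deposited table, the mean of probes, blocks, weights, prior and leaving out each array.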

Additional observations from a re-analysis of the deposited data

How the results depend on the processing

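The count of members called, 0, held under each alternative except array weights, where it was 1 (Mmp13, limma adjusted p = 0.0477). The number of all genes called, 10, was 27 with array weights, 5 with the filter on all 6 arrays, 3 with PBS as the only control, and 1 with normexp, without a filter and with the replicate block. It ranged from 1 to 6 with 1 array left out, at 3 when the untreated array or rHuEPO replicate 1 was dropped, 6 for PBS replicate 2, and 1 for PBS replicate 1, rHuEPO replicate 2 or rHuEPO replicate 3. The cause was not tested. Against PBS the 3 calls became 1 without a filter and 1 with the filter on all arrays. The 0 calls of untreated against PBS became 70 without a filter, none of them members. The members' median change, -0.062, was 0.33 with PBS as the only control, and ranged from -0.18 to 0.33 with 1 array left out. Of the members' 552 values under alternatives, 72 changed sign without a call on either side. The median change over all genes moved from -0.015 to 0.060 with median scaling and 0.070 with normexp. Same-numbered rHuEPO and PBS arrays did not deviate together (correlations -0.071 and -0.16 over all genes, -0.254 and -0.779 over members). The 2 PBS arrays deviate from their mean as mirror images, so these are not separate checks and cannot settle pairing. The labels' numbers are not taken as pairs, and the replicate block gave 0 calls among members. Signal over background limits the 8 dim members, for which no fold could be given.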
